A study of Mus musculus with 6 samples.

Results

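The 33 genes described here encode the enzymes that build cholesterol from acetyl-CoA, the proteins that switch those enzymes on and off, and the proteins that take up, move, store and export sterol. They were taken by gene symbol from a fixed list and made up 33 of the 25078 genes in the count and RPKM tables (RPKM, reads scaled by exon length and library depth). Of these, 19 are synthesis enzymes, including the isoprenoid enzyme Ggps1, and 14 are regulators or handle sterol. An RPKM over 1 in at least 1 scr or knockdown library was reached by 31 of them, and these entered the test. Idi1 and Mylip did not reach it. RNA-seq after ribosomal RNA depletion was performed on 6 libraries of Hepa1-6, a mouse hepatoma line derived from strain C57/L. The wt library came from cells with no treatment. The 2 scr libraries (replicates 25-2 and 50-1) came from cells given lentivirus with a scramble vector, and the 3 knockdown libraries (25-3, 50-2 and 50-5) from cells given lentivirus with a midnolin shRNA. The scr and knockdown cells had both passed through puromycin selection and isolation of colonies that each grew from 1 cell, which the wt cells had not. The knockdown libraries are titled KO in the labels, although the vector carried an shRNA. The labels do not explain the numbers 25 and 50 or tell which clone a library came from. The study describes RNA-seq only for the knockdown clones sh1 and sh2, so the knockdown libraries may not each be a separate clone. They do not say whether replicates were separate cultures, so the p-values measure only the spread between these libraries.

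Cells make cholesterol through the mevalonate pathway, which also supplies the isoprenoids used for protein prenylation, ubiquinone and dolichol. When sterol in the endoplasmic reticulum is low, SCAP carries the precursor of the transcription factor SREBP2 to the Golgi, where 2 proteases release its active part, and this activates nearly every enzyme gene of the pathway. When sterol is high, INSIG proteins hold SCAP back, and oxysterols acting through the liver X receptors turn on genes of sterol efflux such as Abca1 and Abcg1, and Mylip, which limits uptake. Hepatocytes are a major site of both cholesterol synthesis and cholesterol disposal.

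SREBP2 acts at sterol regulatory elements in promoters, together with the factors NF-Y, which binds CCAAT boxes, and SP1, which binds GC boxes. Promoter windows from 250 bases before to 50 bases after an annotated transcription start were found in RefSeq (GRCm38.p6) for 27 of the 33 genes, of which 4 had more than 1 window, and Fdft1, Fdps, Sqle, Stard4, Npc1 and Abcg1 had none there. The promoters of 3 genes are printed, 5′ to 3′ on the strand of the gene, for the 250 bases before the start. They are the promoter of Hmgcs1, which holds the sterol regulatory element, that of Mvd, which passed the test in the knockdown comparison, and that of Msmo1, an enzyme of high level that did not. Capitals mark matches to the sterol regulatory element TCACNCCAC or its complement GTGGNGTGA, and to the CCAAT box or its complement ATTGG.
Hmgcs1, chr13:119690101-119690350, plus strand: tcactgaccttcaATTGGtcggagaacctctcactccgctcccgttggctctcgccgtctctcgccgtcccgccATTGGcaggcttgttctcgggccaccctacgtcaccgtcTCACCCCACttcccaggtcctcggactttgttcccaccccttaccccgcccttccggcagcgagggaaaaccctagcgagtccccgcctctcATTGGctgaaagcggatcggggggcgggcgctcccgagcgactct
Mvd, chr8:122443423-122443672, minus strand: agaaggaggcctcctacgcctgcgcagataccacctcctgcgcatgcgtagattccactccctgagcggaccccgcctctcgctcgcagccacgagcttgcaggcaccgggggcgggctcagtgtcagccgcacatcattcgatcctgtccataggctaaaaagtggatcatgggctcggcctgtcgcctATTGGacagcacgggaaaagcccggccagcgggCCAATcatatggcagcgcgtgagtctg
Msmo1, chr8:64733579-64733828, minus strand: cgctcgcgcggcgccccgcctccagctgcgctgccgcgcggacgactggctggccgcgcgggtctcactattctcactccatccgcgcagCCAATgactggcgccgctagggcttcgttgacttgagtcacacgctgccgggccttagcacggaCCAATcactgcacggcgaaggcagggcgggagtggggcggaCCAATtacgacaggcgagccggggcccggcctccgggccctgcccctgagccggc
The printed stretch of Hmgcs1 held 3 CCAAT boxes around 1 sterol regulatory element, that of Mvd 2 CCAAT boxes close to the start, and that of Msmo1 3. Both strands were searched in the whole window, and a gene was counted, among members and all genes alike, where any of its windows held the motif. The CCAAT boxes of Dhcr7 and the GC boxes of Insig2 lay only in windows away from the outermost start of the gene. The exact sterol regulatory element was found in 1 of the 27 promoters, against 1.44% of the 27025 genes with a promoter in RefSeq. A CCAAT box was found in 22 of 27 (81.5%), against 41.1% of all these genes and 43.6% of the 8966 that were tested for expression. A GC box (GGGCGG or CCGCCC) was found in 23 of 27 (85.2%), against 38.2% of all genes and 69.5% of those tested. None of the 3 motifs contains another. A match here is a description of the sequence and not a bound site.

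The counted reads numbered 25586301 in the smallest library and 33119710 in the largest. Midn, the targeted gene, had an RPKM of 60.5 in wt, 59.6 and 50.8 in the scr libraries against 20.3, 21.8 and 22.1 in the knockdown libraries, a log2 fold change of -1.38 (standard error, SE, 0.133 and FDR 0.00777 by Benjamini-Hochberg in edgeR's quasi-likelihood test). Over all genes tested, 5.4% were called higher and 5.23% lower, and all 3 knockdown libraries lay above both scr libraries in 25.7% and below both in 24.5%. Of 10 hepatocyte and hepatoma markers, 9 were tested and 1, Ttr, was called lower. Their summed RPKM was 3557 to 4349 in scr and 1454 to 2219 in knockdown, a sum carried mainly by Alb, Afp and Apoe, and Apoa1 stayed under 1 in both groups. The list did not move one way. All 3 knockdown libraries lay below both scr libraries for 4 of the 9 tested markers, Ttr (log2 fold change -6.68), Alb (-4.08), Afp (-2.10) and Foxa1 (-1.92), and above both for Apob (3.93) and Apoe (0.50), and the median of the 9 was 0.09. All 4 endothelial markers, the leukocyte markers Ptprc and Adgre1 and 4 of 5 fibroblast markers were under an RPKM of 1 in every scr and knockdown library. The summed RPKM was 40.4 to 68.7 in scr and 20.8 to 29.1 in knockdown for the 5 leukocyte markers, and 0.257 to 0.348 and 1.76 to 2.95 for the 5 fibroblast markers, of which Cd14 was called lower and Pdgfra higher. The other tested leukocyte markers, Csf1r (log2 fold change 2.29) and Cd68 (0.97), had all 3 knockdown libraries above both scr libraries and were not called. The part of these markers in the results below was not tested. In bulk RNA, fewer cells that express a gene and less RNA per cell cannot be told apart.

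**Figure D1:**
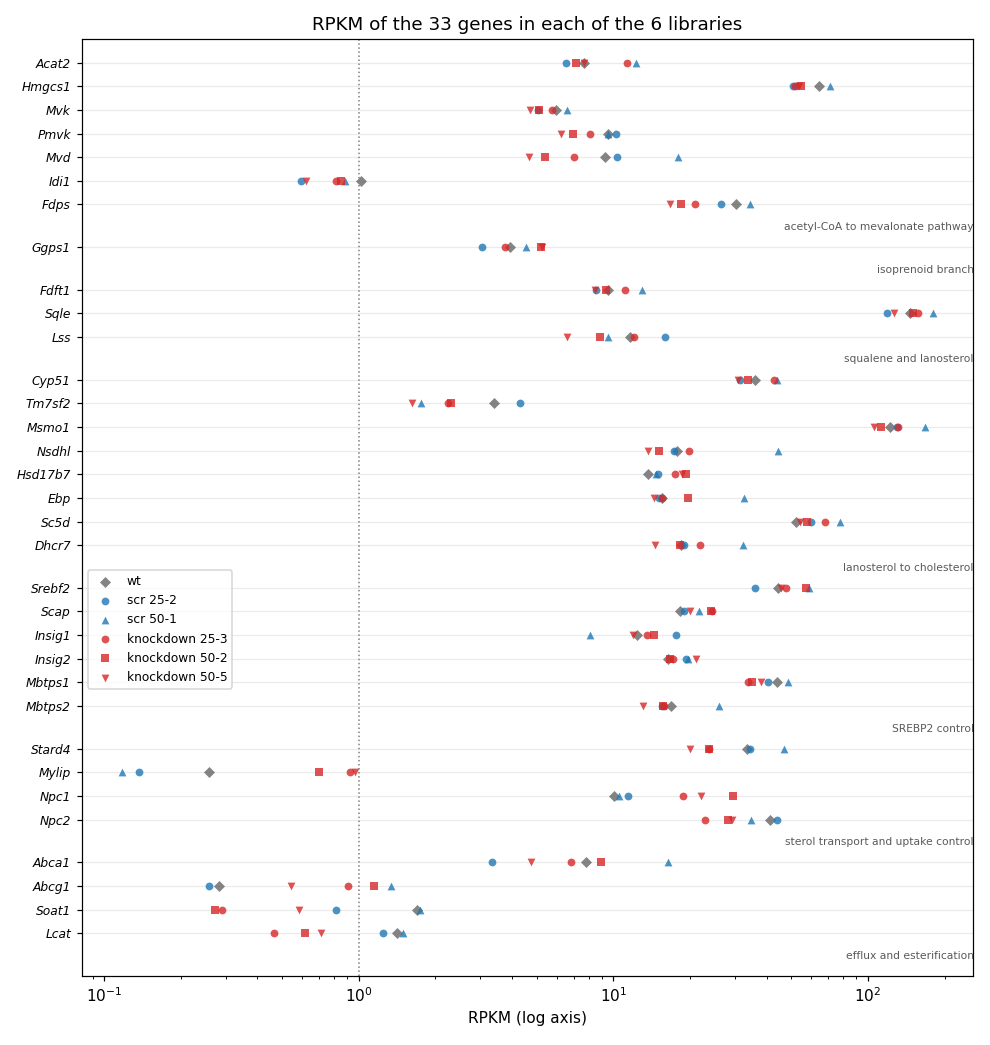
RPKM (log axis) of the 33 genes in each of the 6 libraries, with genes in rows, the name of each role under its group of genes and the filter of RPKM 1 as a dotted line. Levels run from 0.118 for Mylip in scr 50-1 to 180 for Sqle in scr 50-1, and in most rows the knockdown libraries lie among the scr libraries or just below them.

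Of the 19 synthesis enzymes, 18 had an RPKM over 1 in all 6 libraries. Per length of transcript, the highest were Sqle, squalene epoxidase, at a mean RPKM of 149 ± 43.5 in scr (SD, n = 2), and Msmo1, which takes part in removing methyl groups from the sterol ring, at 149 ± 26.1 (SD, n = 2). The lowest of the tested synthesis enzymes was Tm7sf2, a sterol reductase, at 3.03 ± 1.80 (SD, n = 2).

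Between knockdown and scr, few of these genes passed the test. Npc1 was higher, and Mvd and Stard4 were lower, at an FDR under 0.05 and a change of at least 1.5-fold. When the edgeR fit also held a term for the number 25 or 50, all 3 calls were lost, at an FDR of 0.0677 for Npc1, 0.0826 for Mvd and 0.0608 for Stard4, while the log2 fold changes were 1.03, -1.33 and -0.87. In the comparison without that term, 1 of 31 tested members was called higher (3.23%), where 5.4% of all 11577 genes tested were, and 2 were called lower (6.45%), where 5.23% of all genes were. The members thus were called about as often as genes at large. An unadjusted p under 0.05 was reached by 9 members (29%, against 31.5% of all genes tested). Of these, 7 were lower (22.6%, against 16.5% of all genes; Pmvk, Mvd, Fdps, Stard4, Npc2, Soat1 and Lcat) and 2 higher (6.45%, against 15% of all genes; Npc1 and Hsd17b7). All 3 knockdown libraries lay below both scr libraries in 8 members (25.8%, against 24.5% of all genes), namely these 7 and Mbtps1, and above both in Npc1 and Hsd17b7 (6.45%, against 25.7% of all genes). Soat1 and Lcat, counted as lower here and below, passed the filter of RPKM 1 only through scr libraries. All their knockdown libraries were under 1, and Mylip, which was higher in knockdown, did not pass the filter. The log2 fold change was below 0 in 24 of the 31 members (77.4%, against 50.9% of all genes tested), with a median of -0.33 where that of all genes was -0.01. This downward lean rested on 1 control library. Without scr 50-1 the median of the members was -0.04, with 16 of 30 below 0, and without scr 25-2 it was -0.43. In limma it was -0.19 with either pseudocount (0.1 or 1) on the log2 RPKM scale.

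**Figure D2:**
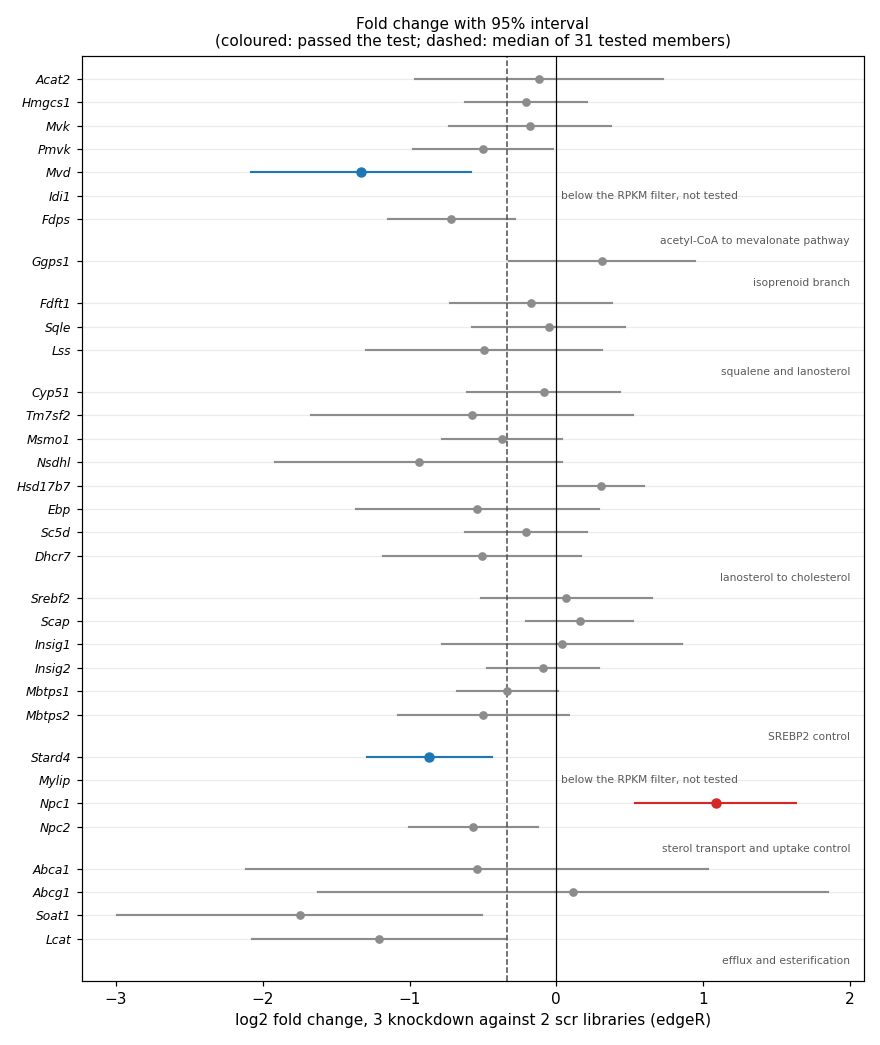
Fold change of each tested member on the log2 scale, 3 knockdown against 2 scr libraries, as points with 95% intervals, coloured blue (lower) or red (higher) where the gene passed the test, with role names under each group. Mvd, Stard4 and Npc1 are coloured, and the dashed line at -0.33 is the median of the 31 tested members.

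The first steps of the pathway join acetyl units and carry them through mevalonate to farnesyl diphosphate. Hmgcs1, the synthase that makes HMG-CoA, had an RPKM of 64.3 in wt, 50.9 and 71.2 in scr 25-2 and 50-1 against 51.8, 54.6 and 53.6 in knockdown 25-3, 50-2 and 50-5. The 3 knockdown libraries lay close together and inside the scr range. The log2 fold change was -0.21 (95% interval -0.62 to 0.21, FDR 0.446 by Benjamini-Hochberg in edgeR's quasi-likelihood test). The estimate for Mvd, -1.33, lay outside this interval, but the 95% interval of Mvd (-2.08 to -0.58) overlapped it. The difference between Hmgcs1 and Mvd was not tested. Acat2, the thiolase at the entry, overlapped between groups (log2 fold change -0.12, SE 0.342), as did Mvk, mevalonate kinase (-0.18, 0.223).

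Mvd (chromosome 8 of mm10, 122433596 to 122443422, minus strand) encodes mevalonate diphosphate decarboxylase, which makes isopentenyl diphosphate, the unit of all isoprenoids. Its RPKM was 9.28 in wt, 10.3 and 18.02 in the scr libraries against 7.00, 5.40 and 4.65 in the knockdown libraries. Every knockdown library lay below wt and both scr libraries. Mvd fell by 1.33 on the log2 scale, or 2.51-fold, from a mean RPKM of 14.2 ± 5.45 (SD, n = 2) to 5.68 ± 1.20 (SD, n = 3), with an FDR of 0.0481 (SE 0.302 by Benjamini-Hochberg in edgeR's quasi-likelihood test). The scr libraries themselves differed 1.75-fold. Without scr 50-1 the log2 fold change was -0.87 and the FDR 0.103, and without scr 25-2 they were -1.66 and 0.0143. Without any 1 of knockdown 25-3, 50-2 and 50-5 the FDR was 0.104, 0.173 and 0.135.

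Of its neighbours in the pathway, Pmvk and Fdps had lower values in every knockdown library without passing the test, and Idi1 did not. Pmvk, phosphomevalonate kinase, the step before Mvd, had an RPKM of 10.3 and 9.57 in scr against 8.08, 6.92 and 6.24 in knockdown (log2 fold change -0.50, SE 0.192, FDR 0.144 by Benjamini-Hochberg in edgeR's quasi-likelihood test). Fdps, farnesyl diphosphate synthase, had 30.4 in wt, 26.5 and 34.4 in scr against 20.95, 18.5 and 16.7 in knockdown. The groups of Fdps did not overlap, and its log2 fold change was -0.72 (SE 0.175, FDR 0.0561 in that edgeR test). DESeq2 called Fdps, as did the edgeR test with wt among the controls or without scr 25-2. Its FDR in edgeR was 0.129 without scr 50-1, 0.12 to 0.192 without any 1 of the knockdown libraries and 0.0903 with the 25 or 50 of the labels as a term. Idi1, the isomerase between Mvd and Fdps, stayed between 0.593 and 0.882 in scr and knockdown and was at 1.02 in wt, and its groups overlapped.

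From farnesyl diphosphate the pathway goes to squalene and lanosterol or, through Ggps1, to geranylgeranyl groups. Sqle, often described as a second point of control of the pathway, had an RPKM of 146 in wt, 119 and 180 in scr against 158, 151 and 126 in knockdown. The knockdown values all lay between those of the 2 scr libraries. The log2 fold change of Sqle was -0.05 (95% interval -0.58 to 0.47, FDR 0.889 by Benjamini-Hochberg in edgeR's quasi-likelihood test). Fdft1, squalene synthase, and Lss, lanosterol synthase, gave log2 fold changes of -0.17 and -0.49, with overlapping groups. Ggps1, geranylgeranyl diphosphate synthase, had 3.04 and 4.56 in scr against 3.74, 5.21 and 5.27 in knockdown (log2 fold change 0.31, SE 0.256). None of these 4 reached an unadjusted p under 0.05. The counts of Fdft1 and Lss may include reads of opposite-strand neighbours, since their gene bodies share 773 bases with Ctsb and 11269 bases with 4930483K19Rik and no source gives the strand setting used for counting.

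The 8 enzymes that turn lanosterol into cholesterol gave no call. In 7 of them the log2 fold change was below 0, from -0.09 for Cyp51, the lanosterol demethylase, to -0.94 for Nsdhl, which acts with Msmo1 in demethylation. Their groups all overlapped. For Nsdhl the controls lay far apart, with RPKM values of 17.4 (scr 25-2) and 44.4 (scr 50-1), beside 19.9, 15.1 and 13.7 in knockdown and 17.7 in wt. Ebp, the sterol isomerase, showed the same arrangement, with 15.1 and 32.6 in scr, 15.5, 19.7 and 14.4 in knockdown and 15.5 in wt. Dhcr7, which makes cholesterol from 7-dehydrocholesterol, had 19.04 and 32.3 in scr against 21.8, 18.3 and 14.6 in knockdown (log2 fold change -0.51, SE 0.273). For Nsdhl and Ebp, scr 50-1 stood alone and the other 5 libraries lay together. The gene body of Ebp shares 8184 bases with Btbd35f15, and that of Mbtps2 2867 bases with Yy2, so the counts of both are uncertain. Sc5d, the desaturase before Dhcr7, and Tm7sf2 gave -0.21 and -0.58. Hsd17b7, the keto-reductase of the demethylation complex, was the exception in direction, with 14.9 and 14.8 in scr against 17.4, 19.4 and 18.6 in knockdown. Its log2 fold change was 0.30 (SE 0.120, FDR 0.154 by Benjamini-Hochberg in edgeR's quasi-likelihood test), and wt, at 13.7, lay below all 5 other libraries.

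None of the 6 genes of the SREBP2 switch was called or reached an unadjusted p under 0.05. Srebf2, which encodes SREBP2, had an RPKM of 44.4 in wt, 36.0 and 58.8 in scr against 47.7, 57.3 and 45.4 in knockdown. Its knockdown values lay between the 2 scr values, and its log2 fold change was 0.07 (95% interval -0.51 to 0.65, FDR 0.871 by Benjamini-Hochberg in edgeR's quasi-likelihood test). Insig1, which retains SCAP and is itself a target of SREBP2, had 12.4 in wt, 17.6 and 8.07 in scr against 13.6, 14.4 and 11.97 in knockdown. Here scr 25-2 was the highest library and scr 50-1 the lowest, and the log2 fold change was 0.04 (95% interval -0.78 to 0.86, FDR 0.954 in that edgeR test). Scap, the escort of SREBP2, and Insig2 gave 0.16 and -0.09. The 2 proteases that release SREBP2 gave -0.33 (Mbtps1, site-1 protease) and -0.50 (Mbtps2, site-2 protease). For Mbtps1 the knockdown libraries (33.7, 35.1 and 37.9) were below both scr libraries (40.4 and 48.5), with an FDR of 0.166 by Benjamini-Hochberg in edgeR's quasi-likelihood test. Changes in the cleavage of SREBP2 are not visible in RNA levels.

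Of the 4 genes of sterol transport and uptake control, 3 were tested, with 1 called higher and 1 lower, beside the 5.4% and 5.23% of all genes, and both calls were lost with the 25 or 50 term. Stard4 encodes a soluble carrier that moves cholesterol between membranes and is a known SREBP2 target. Its RPKM was 33.5 in wt, 34.4 and 46.8 in scr against 23.7, 23.7 and 20.01 in knockdown. All 3 knockdown libraries lay below the other 3. Stard4 fell by 0.87 on the log2 scale, or 1.82-fold (SE 0.173, FDR 0.0359 by Benjamini-Hochberg in edgeR's quasi-likelihood test). Its FDR in the same test was 0.0121 without scr 25-2 and 0.0636 without scr 50-1, and 0.113, 0.134 and 0.107 without knockdown 25-3, 50-2 and 50-5.

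Npc1 and Npc2 act together in moving cholesterol out of the late endosome and lysosome, Npc2 as the soluble carrier and Npc1 as the membrane protein that receives it. Npc1 had an RPKM of 10.1 in wt, 11.4 and 10.5 in scr against 18.7, 29.6 and 22.1 in knockdown. The 3 control libraries lay close together and every knockdown library was far above them. Npc1 rose by 1.08 on the log2 scale, or 2.12-fold (SE 0.221, FDR 0.0373 by Benjamini-Hochberg in edgeR's quasi-likelihood test). Leaving out any 1 library gave log2 fold changes of 0.90 to 1.22 and FDR values of 0.0485 to 0.0994. Npc2 went the other way, with 41.1 in wt, 43.8 and 34.7 in scr against 22.8, 28.2 and 29.3 in knockdown. Its groups did not overlap, but the log2 fold change of -0.57 (SE 0.178) had an FDR of 0.0955 by Benjamini-Hochberg in edgeR's quasi-likelihood test. Npc1 shares 276 bases of its gene body with Rmc1 on the opposite strand.

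Mylip, the ubiquitin ligase that marks lipoprotein receptors for degradation, was too low for the test, since no library reached an RPKM of 1. It had 20 counts in wt, 12 and 10 in scr against 87, 67 and 95 in knockdown, or RPKM values of 0.257, 0.137 and 0.118, and 0.923, 0.695 and 0.962. All 3 knockdown libraries lay above the 3 controls, in a gene where no library exceeded 95 counts. With no filter on RPKM its log2 fold change was 2.74 (SE 0.415, FDR 0.0147 by Benjamini-Hochberg in edgeR's quasi-likelihood test), and it was then called higher.

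**Figure D3:**
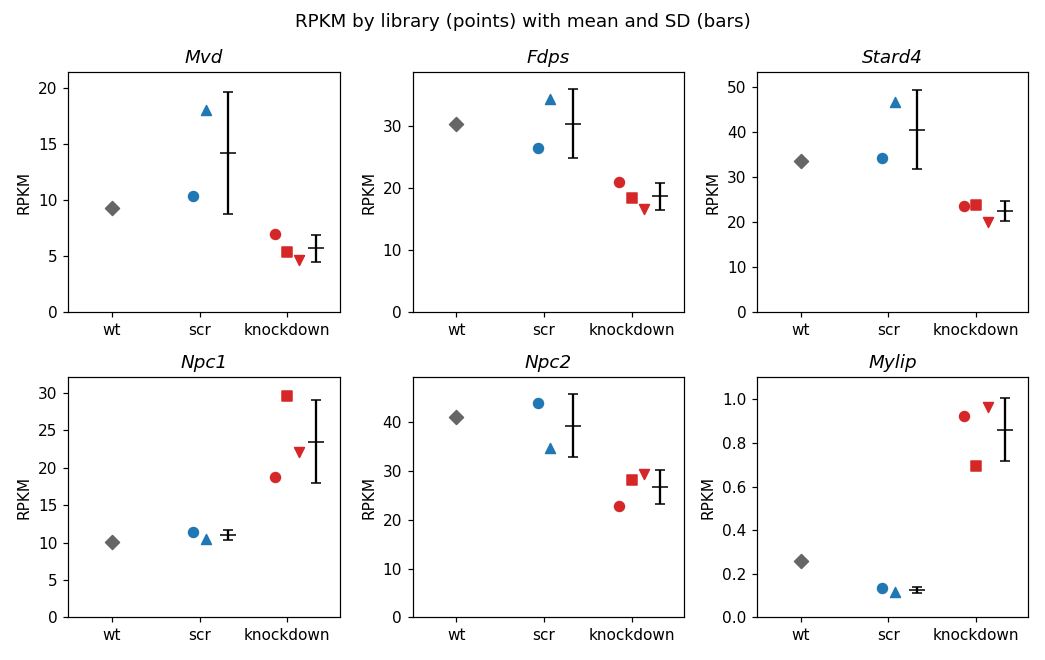
RPKM of Mvd, Fdps, Stard4, Npc1, Npc2 and Mylip in each library (points, linear axes from 0), with the mean and SD of the 2 scr and the 3 knockdown libraries as bars. In each gene the 3 knockdown libraries do not overlap the scr libraries, from 18.7 to 29.6 against 10.5 and 11.4 for Npc1, while Fdps and Npc2 did not pass the test and Mylip was below its filter.

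Sterol efflux and storage were measured by 4 genes. Abca1, the transporter that loads cholesterol onto apolipoprotein A-I, had an RPKM of 7.83 in wt, 3.35 and 16.4 in scr against 6.83, 8.95 and 4.74 in knockdown. The scr libraries differed 4.90-fold and enclosed all other libraries, so the log2 fold change of -0.54 had a 95% interval from -2.11 to 1.03 (FDR 0.603 by Benjamini-Hochberg in edgeR's quasi-likelihood test). Abcg1, which exports sterol to mature lipoprotein particles, behaved alike at a lower level, with 0.257 and 1.33 in scr against 0.909, 1.15 and 0.540 in knockdown. Its 95% interval ran from -1.62 to 1.85, so for both transporters only large differences could have been detected. Soat1, which esterifies cholesterol for storage, had 115 and 237 counts in scr and 44, 42 and 92 in knockdown (log2 fold change -1.75, SE 0.503, FDR 0.0780 by Benjamini-Hochberg in edgeR's quasi-likelihood test). Lcat, the secreted enzyme that esterifies cholesterol on lipoproteins, had 50 and 58 counts in scr and 20, 27 and 32 in knockdown (log2 fold change -1.21, SE 0.351, FDR 0.0800 in that edgeR test). Soat1 and Lcat had non-overlapping groups and low counts, and neither passed the test. Both entered it only through scr, with RPKM values of 0.817 and 1.74 for Soat1 and 1.25 and 1.49 for Lcat. All their knockdown libraries were under 1, so the filter admitted both by the group where they were higher.

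The 2 scr libraries differed from each other in many of these genes. The RPKM was higher in scr 50-1 than in scr 25-2 for 25 of the 33 members and for 15 of the 19 synthesis enzymes, with a median log2 ratio of 0.45 over the members and of 0.02 over all genes tested, of which 51.6% were higher in scr 50-1. The libraries differed by at least 1.5-fold in 16 of 33 members, where 28.9% of all genes did, and by at least 2-fold in 7, where 13.4% did. Chromosomes differed in the same comparison. The median log2 ratio of scr 50-1 to scr 25-2 was 0.64 for the 348 tested genes on chromosome X, 0.56 on chromosome 15 and 0.50 on chromosome 13, and -0.36 on chromosome 10 and -0.34 on chromosomes 3 and 19. Nsdhl, Ebp and Mbtps2, all on X, had log2 ratios of 1.35, 1.11 and 0.75. Srebf2 and Sqle on chromosome 15 had 0.71 and 0.60, and Hmgcs1 on chromosome 13 had 0.48, close to the medians of their chromosomes. The ratios of Lss on chromosome 10 (-0.74) and Tm7sf2 on chromosome 19 (-1.29) were low, as were the medians there. Others went against their chromosome, Fdps on chromosome 3 with 0.37 and Mylip on chromosome 13 with -0.22. After the median of the chromosome was taken out, 26 of the 33 members were above 0, with a median of 0.29, against 25 and 0.45 before. Abca1 and Abcg1 stood apart from chromosome medians of 0.04 with log2 ratios of 2.29 and 2.38.

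**Figure D4:**
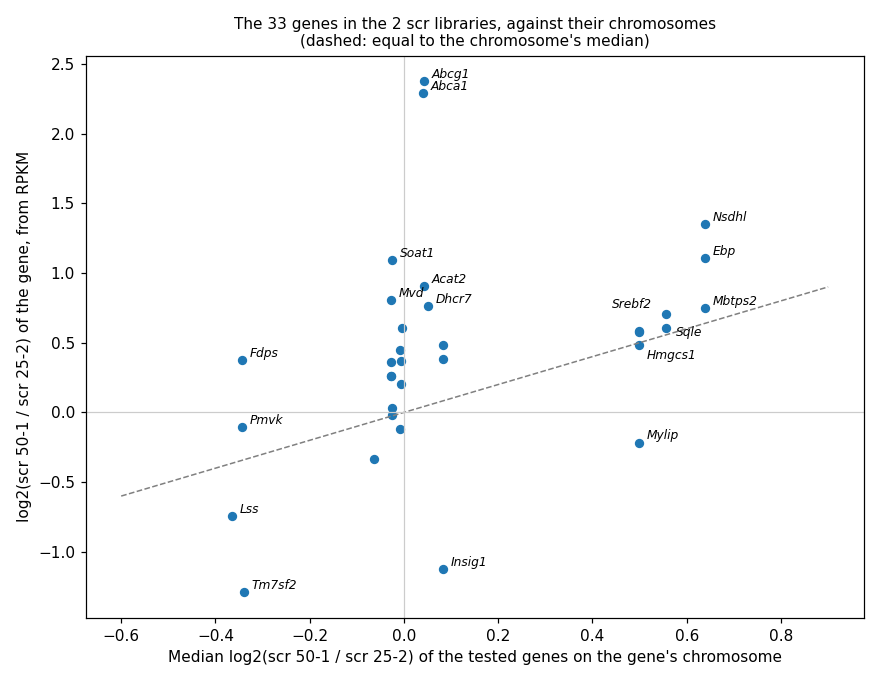
Log2 ratio of scr 50-1 to scr 25-2 for each of the 33 genes (y) against the median log2 ratio of the tested genes on its chromosome (x), from RPKM, with equality as a dashed line. Nsdhl, Ebp and Mbtps2 sit at the right at the chromosome X median of 0.64, and Abcg1 (2.38) and Abca1 (2.29) lie far above the line.

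Chromosome medians also differed in the comparison of knockdown with scr. They ran from -0.47 on chromosome 16 to 0.34 on chromosome 6, against -0.01 over all genes. Among chromosomes that hold members they were -0.44 on X, -0.42 on chromosome 12, -0.38 on chromosome 18, -0.30 on chromosome 8 and 0.20 on chromosome 1. Mvd, on chromosome 8, came to -1.03 less that median. Stard4 and Npc1 are both on chromosome 18, and theirs became -0.48 and 1.46. Npc1 thus moved against its chromosome. Npc2, on chromosome 12, came to -0.14. Among members that were not called, Mbtps1 came to -0.03, Mbtps2 to -0.06, Msmo1 to -0.07, Ebp to -0.10 and Hsd17b7 to 0.10. Others stayed far from 0 or moved away from it, such as Soat1 at -1.95, Lcat at -0.91, Fdps at -0.66 and Insig2 at -0.29 (from -0.09). After the medians were taken out, 26 of the 31 tested members were below 0, with a median of -0.22. This adjustment carries no test, and the part of the chromosome in these results was not tested.

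Within the knockdown group, library 50-5 had the lowest value in 22 of the 33 members and in 15 of the 19 synthesis enzymes, and library 25-3 the highest in 15 and 13. Over the 18 tested synthesis enzymes, the median log2 ratio to the scr mean was -0.13 in 25-3, -0.33 in 50-2 and -0.42 in 50-5. The controls on the same scale were -0.26 in scr 25-2, 0.22 in scr 50-1 and -0.12 in wt, so scr 25-2 lay among the knockdown libraries. With 25-3 and 50-2 alone against both scr libraries, no member was called, where 3.01% of the 11482 genes tested were (346 genes, edgeR quasi-likelihood test).

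The wt library, which had neither vector nor selection and has no replicate, lay between the scr libraries in 21 of the 33 members, above both in 2 and below both in 10. Over all genes tested it lay between them in 37.3%. It was nearer to the scr mean than to the knockdown mean in 20 members and nearer to the knockdown mean in 13. For the called members Stard4 (33.5) and Mvd (9.28) it was below both scr libraries and above all knockdown libraries. For Npc1 (10.1) it was below all 5 other libraries. In each of these called members it was nearer to the scr mean than to the knockdown mean.

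Other genes of the same metabolism were read from 2 lists that hold none of the 33. Of 28 other sterol genes, 22 were tested, with 2 called higher and 1 lower, where 5.4% and 5.23% of all genes tested were, and with a median log2 fold change of -0.26. Scarb1, the receptor through which hepatocytes take cholesterol from high-density lipoprotein, rose from 11.4 and 17.1 in scr to 26.8, 30.4 and 35.8 in knockdown (log2 fold change 1.11, FDR 0.0394 by Benjamini-Hochberg in edgeR's quasi-likelihood test). Pgrmc1, a haem-binding partner of sterol-metabolising cytochromes, rose from 40.0 and 52.6 to 92.0, 108 and 73.9 (log2 fold change 0.97, FDR 0.0454 in that edgeR test). Cyp27a1, the sterol 27-hydroxylase of bile acid and oxysterol synthesis, fell from 15.1 and 18.6 to 5.05, 4.52 and 4.03 (log2 fold change -1.91, FDR 0.00777 in that edgeR test). In all 3 genes the groups were apart. Without any 1 of knockdown 25-3, 50-2 and 50-5 the FDR in edgeR was 0.0912, 0.132 and 0.105 for Scarb1 and 0.14, 0.146 and 0.0681 for Pgrmc1, so neither was called. Pgrmc1 was also not called without scr 25-2 (0.078) or with the 25 or 50 term (0.0739). Cyp27a1 lost its call only without knockdown 50-2 (0.0548), among the alternatives run. Of 15 genes that use isoprenoids, 14 were tested and 1 was called lower (beside the 5.23% of all genes), Chm, the Rab escort protein that presents Rab proteins for geranylgeranylation (log2 fold change -0.78, FDR 0.0466 in that edgeR test). Chm was not called without any 1 of the knockdown libraries (FDR 0.129 to 0.151 in edgeR), without scr 50-1 (0.0836) or in limma on log2 RPKM (0.0562 and 0.0571).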

How the data were processed

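RNA from 6 libraries of Hepa1-6 cells was sequenced after ribosomal depletion. The authors used TopHat2 for alignment to mm10 and HTSeq for counting per RefSeq gene, and the deposited counts carry no normalization. The authors also deposited RPKM values, scaled with the TMM method of edgeR. The strand setting is not given in the sources used here, and overlapping genes are uncertain. Columns were matched to samples by name, with 0 left unmatched.

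From the counts, 3 knockdown and 2 scr libraries were compared with the quasi-likelihood test of edgeR 4.0.16 (R 4.3.3). TMM factors were used, and Benjamini-Hochberg adjustment covered 11577 genes, those whose RPKM exceeded 1 in any of these 5 libraries. Calls needed an FDR under 0.05 and a change of at least 1.5-fold. The standard error is the absolute log2 fold change over the square root of F. wt, with 1 library, was only described. The comparison with 2 knockdown libraries used the same filter on 4 libraries. RPKM levels are given per length, as mean ± SD over libraries. The common biological coefficient of variation between libraries was 0.272. Counting error adds to it in the members with under 100 counts in some libraries (Idi1, Tm7sf2, Mylip, Abcg1, Soat1 and Lcat). In simulated counts the test recovered 168 of 200 genes changed 4-fold and called 12 unchanged genes among 11577. This does not give the recovery at smaller changes, such as the 1.82-fold to 2.51-fold of the called members.

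All 33 members are accounted for. Values in every library are given for called members and for Hmgcs1, Sqle, Srebf2, Insig1 and Abca1, and other genes are named where called or as a step of the pathway. The members, lists, tests and markers were chosen with earlier results of these data known. Alternatives were DESeq2 1.42.0, other size factors and filters, limma 3.58.1 on log2(RPKM + 1) and log2(RPKM + 0.1), wt among the controls, each library left out, and the 25 or 50 of the labels as a term. Taking out chromosome medians was chosen after seeing the data. Promoter motifs were exact matches. Figures were drawn with matplotlib 3.10.9.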

Additional observations from a re-analysis of the deposited data

How the results depend on the processing

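The counts of called members depended on the libraries and the test. Members called higher, 1 as reported, numbered 2 with edgeR's filterByExpr or with no filter, where Mylip was added, and 0 with the 25 or 50 of the labels as a term. With each library left out they ranged from 0 to 1. Members called lower, 2 as reported, numbered 4 in DESeq2 (Mvd, Fdps, Stard4 and Soat1), 5 with wt among the controls (these and Lcat), 1 in limma on log2(RPKM + 1), where the FDR of Mvd was 0.0502, and 0 with the 25 or 50 term. With each library left out they ranged from 0 to 7, the 7 without scr 25-2 (Mvd, Fdps, Nsdhl, Ebp, Mbtps2, Stard4 and Soat1). No member was called without scr 50-1 or without any 1 of the knockdown libraries, nor with the 25 or 50 term, where the FDR was 0.0826 for Mvd, 0.0608 for Stard4 and 0.0677 for Npc1. Over all alternatives the FDR lay between 0.00167 and 0.173 for Mvd, 0.000294 and 0.134 for Stard4, and 0.000147 and 0.0994 for Npc1. Over all genes, 1230 were called, against 2322 in DESeq2, 1648 with wt among the controls, 807 with that term and 131 to 2273 with each library left out. The cause of these shifts was not tested. Each fit that leaves out a library also holds fewer libraries, and the part of that was not tested either.

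Over the members and alternatives, 389 of 433 fold changes kept their direction and their side of the threshold, 16 lost the threshold, 10 gained it and 18 changed sign. All 18 came from leaving out a library. Over these fits the log2 fold change ranged from -0.49 to 0.40 for Acat2, -0.413 to 0.0541 for Hmgcs1, -0.347 to 0.0223 for Mvk, -0.43 to 0.16 for Fdft1, -0.31 to 0.28 for Sqle, -0.30 to 0.17 for Cyp51, -1.08 to 0.23 for Tm7sf2, -0.98 to 0.12 for Ebp, -0.23 to 0.46 for Srebf2, -0.41 to 0.72 for Insig1, -1.26 to 1.02 for Abca1 and -0.62 to 1.74 for Abcg1. Soat1 had no value without scr 50-1, since it then fell below the filter. Where 1 scr library remains, it is assumed to vary like the knockdown group. The labels of the scr and knockdown libraries share the numbers 25 and 50, which no source explains, so the fit with that term is given without taking the libraries as paired. The 2 scr libraries differed by at least 1.5-fold in 16 of the 33 members, which limits what the test can detect.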

Other observations

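Of the sterol genes outside the 33, some were chosen here after their values were seen, because they share the spread of the controls described for Abca1 and Abcg1 or act next to Cyp27a1. Nr1h3, which encodes a liver X receptor, the factor that activates Abca1 and Abcg1, had RPKM values of 11.01 (scr 25-2) and 1.55 (scr 50-1), the opposite order to both transporters, and 5.04, 3.56 and 2.11 in knockdown. Its groups overlapped, and its log2 fold change was -0.84 (SE 0.794, FDR 0.510 by Benjamini-Hochberg in edgeR's quasi-likelihood test). Tspo, an outer mitochondrial membrane protein that binds cholesterol, differed 3.13-fold between the scr libraries, at 31.4 and 98.4. Cyp7b1, the oxysterol hydroxylase that acts after Cyp27a1 in the acidic route of bile acid synthesis, had 15.9 and 8.77 in scr and 3.74, 3.64 and 6.15 in knockdown. All 3 knockdown libraries lay below both scr libraries, with a log2 fold change of -1.46 (SE 0.365, FDR 0.0586 in that edgeR test).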
